A study of Saccharomyces cerevisiae with 6 samples.

Results

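Ergosterol is the main sterol of fungal membranes, and 32 genes for its synthesis, control, uptake, transfer and storage were followed here in wild-type budding yeast, Saccharomyces cerevisiae. The genes were taken from a list written with earlier results of these data known: 24 enzymes and partner proteins from acetyl-CoA to ergosterol, 3 regulators, 2 importers, 1 lipid transfer protein and 2 sterol acyltransferases. Each was read from its 1 probe set on an Affymetrix array, so all 32 of 32 were measured, out of 5449 genes with a name and 8968 probe sets tested. Total RNA came from 3 control cultures kept for 3 h in 0.1% DMSO. It also came from 3 cultures kept for 3 h in 0.1 µM OGT2468. Both groups were wild type and in mid-log phase. The strain background, medium, aeration and the DMSO content of the OGT2468 cultures are not given in the sources used here. OGT2468, for which the labels give a code name only, is described in other work as an inhibitor of protein O-mannosyltransferases. The comparison asked how transcript levels differed after exposure to it.

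Ergosterol synthesis starts with the mevalonate steps, which turn acetyl-CoA into farnesyl pyrophosphate, the branch point from which dolichol, heme A, ubiquinone and prenylated proteins are also made. Squalene synthase commits farnesyl pyrophosphate to sterols, squalene is closed to lanosterol, and lanosterol is demethylated, reduced and desaturated in the endoplasmic reticulum. Several of the steps after squalene use oxygen and heme. When sterol falls, the transcription factors Upc2 and Ecm22 activate many ERG genes, and without oxygen yeast imports sterol instead. Excess sterol is esterified and stored in lipid droplets.

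The median deposited intensity of the named probe sets was 786 to 1150 units in the DMSO cultures and 691 to 842 units in the OGT2468 cultures, so the arrays were brought to a common distribution by quantile normalization. Of the named probe sets, 95.6% to 97.1% exceeded background on an array, background being the 98th percentile of the probe sets of another species that the array also carries. The log2 ratio of the 3' to the 5' ACT1 probe sets, a measure of RNA integrity, was 0.30 to 0.35 in DMSO and 0.33 to 0.41 in OGT2468. Levels below are normalized intensities in units, and changes are OGT2468 minus DMSO on the log2(intensity + 16) scale with 3 arrays per group.

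No sterol gene passed the test. With limma at a Benjamini-Hochberg adjusted p under 0.05 over all tested probe sets, 0 of 32 were higher and 0 of 32 lower, where 1.83% of all tested probe sets were higher and 0.758% lower. At an unadjusted p under 0.05, 3 genes were higher (9.38% of the 32) and 4 lower (12.5%), against 8.56% and 7.84% of all tested probe sets. The 2 groups of arrays did not overlap for 4 genes in the higher direction (12.5%) and 5 in the lower (15.6%), against 12.0% and 12.1% of all tested probe sets. Of all named genes, 10.9% were higher and 10.1% lower at an unadjusted p under 0.05. The groups did not overlap for 15.5% of them in the higher direction and 16.4% in the lower. The shares of the sterol genes lie near the background. The median change over the 32 genes was 0.01, beside -0.01 over all tested probe sets and -0.02 over all named genes, and 17 changes were above 0 and 15 below. The 95% confidence interval of the change, taken gene by gene, lay within 1.5-fold in either direction for 30 of the 32 genes, the exceptions being ERG28 and HES1. That is 93.8%, and 95.8% for the 24 enzymes, against 86.9% of all named genes. Among the 554 named genes at least as bright as the median enzyme, the share was 98.0%. The mean log2 level over the 24 enzymes was 12.14, 12.15 and 12.14 in the DMSO cultures and 12.11, 12.14 and 12.12 in the OGT2468 cultures.

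**Figure D1:**
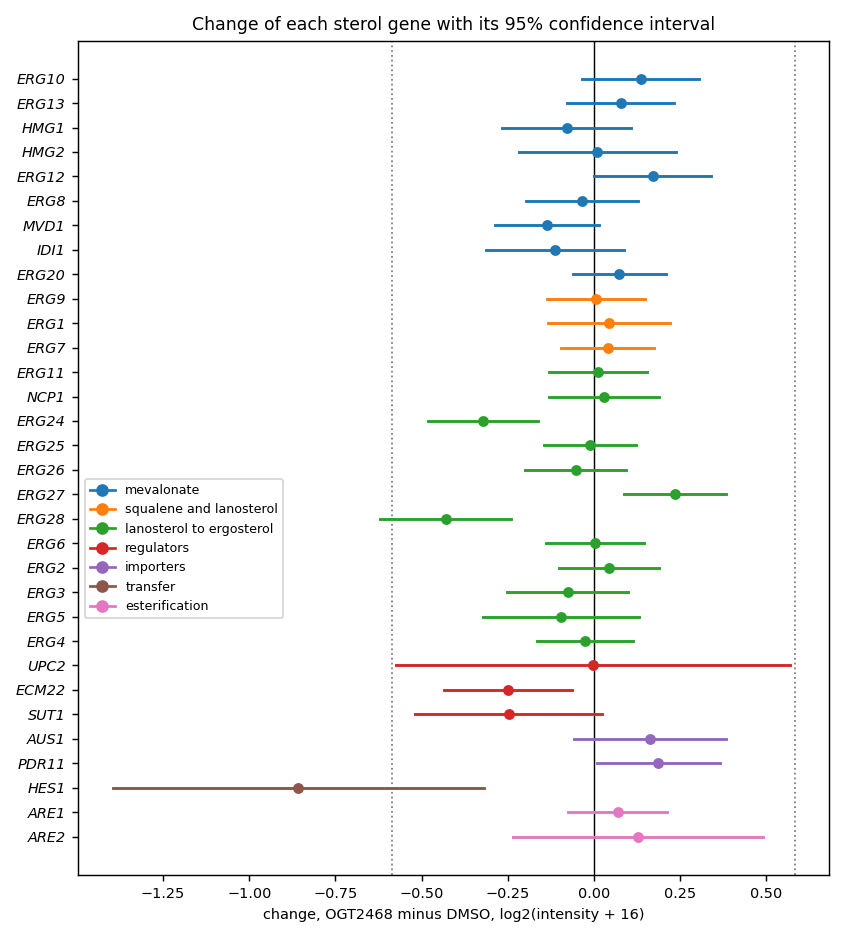
Change of each of the 32 genes (horizontal axis, OGT2468 minus DMSO, log2(intensity + 16), 3 arrays per group) with its 95% confidence interval from limma as a bar, coloured by role. The dotted lines mark 1.5-fold in either direction; only the bars of ERG28 and HES1 cross the left line, and ERG24, ERG27, ERG28, ECM22, HES1, ERG12 and PDR11 have bars that leave out 0.

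Many of the enzymes' probe sets were bright, though intensities do not rank transcript levels between genes. The enzymes' mean intensities ran from 953 to 9912 units, with the median enzyme at 4568 units. ERG11 stood at 63.2% to 72.2% of the highest intensity on its array. Among the 554 named genes at least as bright as that median, limma called 10 higher and 4 lower, with changes up to 0.86 and down to -1.24. That is 2.53%, a smaller share than among all 5449 named genes, of which limma called 148 higher and 60 lower. The part that compression of bright signals played in the changes of the enzymes was not tested.

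**Figure D2:**
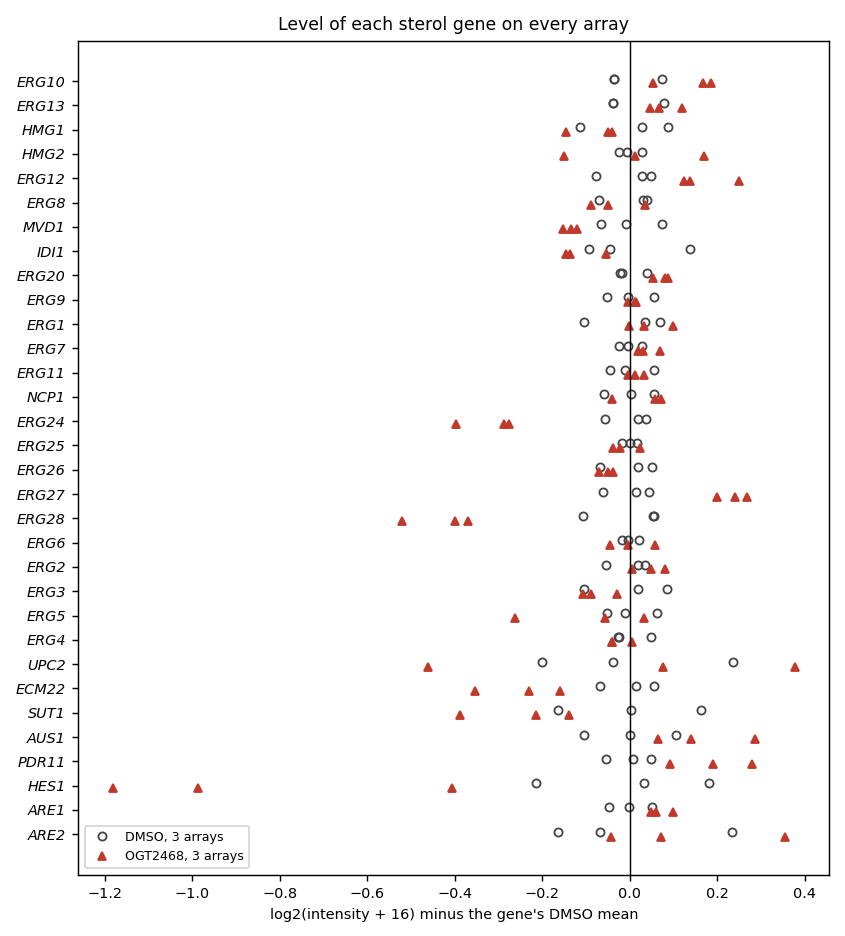
Level of each gene on every array (horizontal axis, log2(intensity + 16) minus that gene's mean over the DMSO arrays), with open circles for the 3 DMSO arrays and triangles for the 3 OGT2468 arrays. The triangles lie among or beside the circles for most genes and apart from them to the left for ERG24, ERG28, ECM22 and HES1 and to the right for ERG27.

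None of the 9 genes of the mevalonate steps passed, and their changes ran from -0.14 to 0.17 with a median of 0.01. HMG-CoA reductase, the rate-limiting enzyme of the route and the target of statins, has 2 isozymes in yeast. HMG1, the main form in aerobic cells, was read at 4724, 4109 and 4533 in the DMSO cultures and 4019, 4325 and 4294 in the OGT2468 cultures. HMG2, the form whose protein is degraded when the route's products build up, was read at 944, 967 and 932 in the DMSO cultures and 852, 1068 and 956 in the OGT2468 cultures. For both isozymes the 2 groups overlapped, and the changes were -0.08 ± 0.08 (SE, adjusted p = 0.664) for HMG1 and 0.01 ± 0.09 (SE, adjusted p = 0.969) for HMG2. Their 95% intervals were -0.27 to 0.11 and -0.22 to 0.24. In the deposited intensities, the log2 ratio of HMG2 to HMG1 within an array was -2.22 ± 0.08 in DMSO and -2.16 ± 0.16 in OGT2468 (SD, n = 3). Multiplying a whole array by a factor cannot move this ratio, though quantile normalization can.

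ERG12, which encodes mevalonate kinase, was read at 1525, 1548 and 1418 in the DMSO cultures and 1633, 1648 and 1783 in the OGT2468 cultures. All 3 treated arrays were above all 3 controls, with a change of 0.17 ± 0.07 (SE, interval 0.0017 to 0.34), but the adjusted p was 0.3. ERG20, the farnesyl pyrophosphate synthase gene, was also higher on every treated array, by 0.07 (interval -0.06 to 0.21, adjusted p = 0.571). MVD1, which encodes the decarboxylase that makes isopentenyl diphosphate, was lower on every treated array, with a change of -0.14 (interval -0.29 to 0.02, adjusted p = 0.353). The thiolase gene ERG10 (0.14), the HMG-CoA synthase gene ERG13 (0.08), the phosphomevalonate kinase gene ERG8 (-0.03) and the isomerase gene IDI1 (-0.11) had groups that overlapped. The steps of the route were thus measured on both sides of 0, with ERG12 and MVD1, 2 steps apart, on opposite sides.

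The 3 genes from farnesyl pyrophosphate to lanosterol had changes from 0.01 to 0.04, and none passed. ERG9, squalene synthase, was read at 5111, 5329 and 4944 in the DMSO cultures and 5175, 5111 and 5169.6 in the OGT2468 cultures. ERG1, squalene epoxidase, an oxygen-using step and the target of allylamine antifungals, was read at 5617, 6343 and 6187 in the DMSO cultures and 6176, 6037 and 6471 in the OGT2468 cultures. ERG7, lanosterol synthase, had a change of 0.04 (interval -0.09 to 0.17). In all 3 genes the groups overlapped, and the intervals of ERG9 (-0.14 to 0.15) and ERG1 (-0.13 to 0.22) reached no further than 0.22 from 0.

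Of the 12 genes from lanosterol to ergosterol none passed, 1 was higher and 2 lower at an unadjusted p under 0.05, and their median change was -0.02. ERG11, the cytochrome P450 that azole antifungals inhibit, was read at 9781, 10258 and 9560.2 in the DMSO cultures and 9949.6, 10086 and 9834 in the OGT2468 cultures. Its groups overlapped, with a change of 0.01 ± 0.06 (SE, interval -0.13 to 0.16, adjusted p = 0.939), and the reductase gene NCP1, which passes electrons to Erg11, had a change of 0.03 (interval -0.13 to 0.19). ERG3, the C-5 desaturase whose loss makes yeast tolerant of azoles, was read at 5605, 4910.2 and 5345 in the DMSO cultures and 5169.6, 4963 and 4899 in the OGT2468 cultures, with a change of -0.08 ± 0.07 (SE, interval -0.25 to 0.10). The methyltransferase gene ERG6 (0.0032), the C-8 isomerase gene ERG2 (0.04), the C-22 desaturase gene ERG5 (-0.09) and the last reductase gene ERG4 (-0.03) also had overlapping groups. ERG5 had the widest interval of these late genes, -0.32 to 0.13, with OGT2468 replicate 3 at 3091 units, below the other 5 arrays at 3568 to 3876 units.

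The 3 enzyme genes farthest from 0 lay in the steps that follow Erg11. ERG24, the C-14 reductase that acts on the product of Erg11 and a target of morpholine antifungals, was read at 3634, 3882 and 3833 in the DMSO cultures and 3096, 3118 and 2867 in the OGT2468 cultures. All 3 treated arrays were below all 3 controls, with a level of 11.89 ± 0.05 in DMSO and 11.57 ± 0.07 in OGT2468 (log2, SD, n = 3). The change was -0.32 ± 0.07 (SE, interval -0.48 to -0.16), and its adjusted p of 0.0771 missed the threshold.

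The next step removes the methyl groups at C-4 and is carried out by a complex of Erg25, Erg26 and Erg27 held together by Erg28. ERG28, the scaffold, was read at 3009.9, 2693 and 3016 in the DMSO cultures and 2196, 2243 and 2017 in the OGT2468 cultures, lower on every treated array. Its change was -0.43 ± 0.08 (SE, interval -0.62 to -0.24) with an adjusted p of 0.0548, the lowest of the 32 genes. ERG27, the 3-keto reductase of the complex, was read at 3627, 3903 and 3823 in the DMSO cultures and 4348, 4473 and 4561 in the OGT2468 cultures, higher on every treated array, with a change of 0.24 ± 0.06 (SE, interval 0.09 to 0.38, adjusted p = 0.128). ERG25, the oxidase, was read at 8504, 8703 and 8605 in the DMSO cultures and 8384, 8471 and 8748 in the OGT2468 cultures. ERG25 and the dehydrogenase gene ERG26 had overlapping groups and changes of -0.01 (interval -0.15 to 0.12) and -0.05 (interval -0.20 to 0.09). The 4 genes of this complex were therefore measured at both ends of the range of the 24 enzymes, ERG28 lowest and ERG27 highest.

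Ratios of deposited intensities within an array do not change when the whole array is multiplied by a factor. Quantile normalization is not such a factor and can move them. Besides that of HMG2 to HMG1 above, 3 were computed for pairs chosen after their values were seen, so they carry no test. The log2 ratio of ERG28 to ERG27 was -0.26, -0.59 and -0.31 in the DMSO cultures and -1.02, -1.01 and -1.20 in the OGT2468 cultures, a difference of -0.69 with no overlap. The log2 ratio of ERG24 to ERG11 was -1.44, -1.40 and -1.19 in the DMSO cultures and -1.69, -1.78 and -1.84 in the OGT2468 cultures, a difference of -0.43 with no overlap. The log2 ratio of ERG28 to ERG25 was -1.50, -1.78 and -1.35 in the DMSO cultures and -1.97, -2.01 and -2.19 in the OGT2468 cultures, a difference of -0.51. All 3 ratios were lower on every treated array than on any control. Each pair holds ERG28 or ERG24, already lower on every treated array, so this lack of overlap is no separate evidence. The ratios of ERG24 to ERG11 and of ERG28 to ERG25 were highest on DMSO replicate 3, which had the highest median deposited intensity (1150 units). They were lowest on OGT2468 replicate 3, which had the lowest (691 units). ERG28, ERG24 and ERG27 passed limma in 3 of the alternative settings, namely a pseudocount of 64 (adjusted p = 0.0125, 0.0203 and 0.045), a test of the named probe sets alone (0.0131, 0.0219 and 0.0413) and dim probe sets left out (0.0178, 0.0259 and 0.0492). ERG28 also passed with scaling on the hybridization controls (adjusted p = 0.0484), and none of the 3 passed in any of the 6 fits without 1 array. With no scaling between arrays the change of ERG27 was -0.03 and that of all named genes had a median of -0.27, so the higher value of ERG27 is one relative to other genes.

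**Figure D3:**
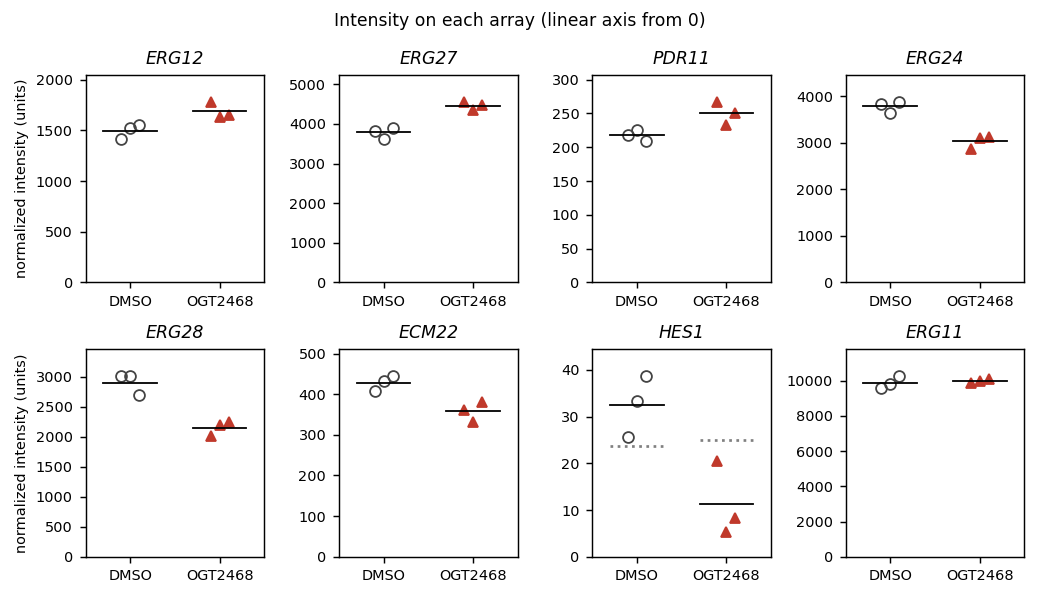
Normalized intensity (vertical axis, units, linear from 0) of 8 genes on each DMSO array (open circles) and OGT2468 array (triangles), with the group mean as a line and, for HES1, the mean background level of each group as a dotted line. ERG24, ERG28 and ECM22 were lower and ERG12, ERG27 and PDR11 higher on every treated array, ERG11 overlapped, and HES1 lay under background on all 3 treated arrays.

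The 3 regulators had changes between -0.25 and -0.0019, and none passed. UPC2, the sterol sensor that moves to the nucleus when ergosterol is short, was read at 87.8, 100.1 and 124 in the DMSO cultures and 70.6, 139 and 109.7 in the OGT2468 cultures. One treated array lay below the controls, 1 above them and 1 among them, and the interval of its change, -0.57 to 0.57, was the widest of the 32. ECM22, the related factor that sits at ERG promoters when sterol is plentiful, was read at 432, 445 and 407 in the DMSO cultures and 331, 381 and 362 in the OGT2468 cultures. All 3 treated values lay below the controls, with a change of -0.25 ± 0.08 (SE, interval -0.43 to -0.06, adjusted p = 0.183). SUT1, a nuclear regulator that promotes sterol uptake, was read at 855, 759.8 and 957 in the DMSO cultures and 773, 734 and 649 in the OGT2468 cultures. One treated array lay among the controls, and the change was -0.25 ± 0.11 (SE, interval -0.52 to 0.03, adjusted p = 0.348).

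Of the plasma membrane transporters that import sterol when cells lack oxygen, AUS1 was read at 364, 393 and 338 in the DMSO cultures and 403, 448 and 382 in the OGT2468 cultures. PDR11, the other importer, was read at 225, 209 and 218 in the DMSO cultures and 233, 250.1 and 267 in the OGT2468 cultures. Both had changes above 0, 0.16 ± 0.09 (SE, interval -0.06 to 0.38) with groups that overlapped and 0.19 ± 0.07 (SE, interval 0.01 to 0.37, adjusted p = 0.284) with groups that did not, and neither passed. Of the acyltransferases that esterify sterols for storage, ARE1 was read at 666, 692 and 645 in the DMSO cultures and 692, 696 and 716 in the OGT2468 cultures. ARE2, which encodes the form with the larger share of activity in aerobic cells, was read at 173, 233 and 186 in the DMSO cultures and 255, 189.5 and 206 in the OGT2468 cultures. Their changes were 0.07 (interval -0.07 to 0.21) and 0.13 (interval -0.23 to 0.49), and in both genes at least 1 treated array lay within the range of the controls. Leaving out 1 array moved the change of ARE2 to between 0.01 (without OGT2468 replicate 1) and 0.25 (without DMSO replicate 2).

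HES1, also called OSH5, belongs to the oxysterol-binding protein homologues, which carry lipids between membranes. Its intensity was 33.4, 38.7 and 25.6 in the DMSO cultures and 5.30, 8.40 and 20.4 in the OGT2468 cultures. All 3 DMSO arrays were above background and all 3 OGT2468 arrays at or below it, so the treated level is known only as a bound. With the treated arrays set to background, the DMSO mean, taken on the log2 scale, was 1.29-fold above them. That value carries no interval, and HES1 did not pass (limma adjusted p = 0.129). The DMSO level was itself near background: DMSO replicate 3, at 25.6, lay below the background of OGT2468 replicate 3, 25.75. The fitted change of -0.86 ± 0.22 (SE) depends on the pseudocount and was -1.62 with 1 and -0.36 with 64. With no scaling between arrays HES1 passed (change -0.92, adjusted p = 0.0449). HES1 was the only one of the 32 genes with any array at background.

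**Figure D4:**
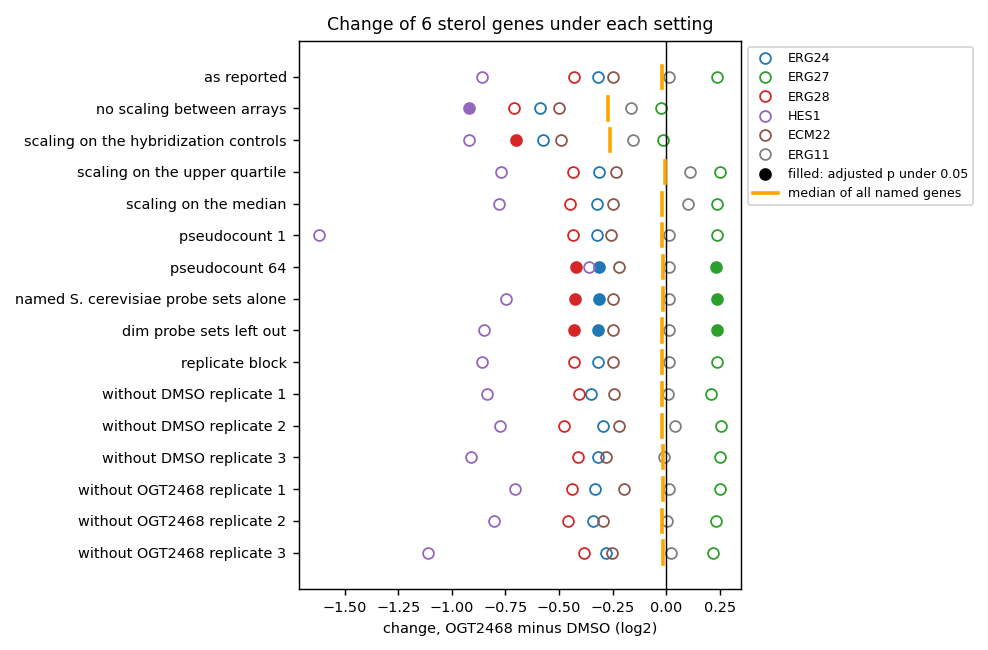
Change of 6 genes (horizontal axis, log2, OGT2468 minus DMSO) under each setting (vertical axis), with filled points for an adjusted p under 0.05 and an orange tick for the median of all named genes. ERG28, ERG24 and ERG27 are filled with a pseudocount of 64, with named probe sets alone and with dim probe sets left out, and the whole field moves left with no scaling and with scaling on the hybridization controls.

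Lists of genes around the pathway were described in the same fit, 1 probe set per gene. Of 7 measured genes of steryl ester hydrolysis and sterol acetylation 1 passed and was higher, with a list median of 0.13. At an unadjusted p under 0.05, 3 of them were higher (42.9%) and 0 lower. Of all tested probe sets 8.56% were higher and 7.84% lower, and of all named genes 10.9% and 10.1%. The gene that passed was PRY2, which encodes a secreted sterol-binding protein that exports acetylated sterols. PRY2 was read at 4325, 4269 and 4395 in the DMSO cultures and 5732, 5572 and 5716 in the OGT2468 cultures. It rose by 0.39 ± 0.05 (SE, adjusted p = 0.0236), a call lost in each of the 6 fits without 1 array (adjusted p 0.0772 to 0.103), under all 4 other scalings and with the replicate block (adjusted p = 0.117). With no scaling its change was 0.14. None of 15 genes of sterol transfer and traffic passed (2 higher, 13.3%, and 0 lower at an unadjusted p under 0.05, list median 0.02), the lowest p belonging to NCR1, the yeast relative of the Niemann-Pick C protein (0.28, adjusted p = 0.0956), and OSH6, a relative of HES1 (0.27, adjusted p = 0.156).

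Of 14 genes for heme, the electron donors of the oxygen-using steps and the factors that read heme and oxygen, none passed, with a list median of 0.13. At an unadjusted p under 0.05, 6 of the 14 were higher (42.9%) and 2 lower (14.3%), against 8.56% and 7.84% of all tested probe sets. Of all named genes the shares were 10.9% and 10.1%. HEM4, an enzyme of heme synthesis, had a change of 0.42 (adjusted p = 0.0966), and HAP1, the heme-responsive activator, one of -0.26 (adjusted p = 0.121). Of 8 genes that set the stability of HMG-CoA reductase and other ERG proteins none passed, with a list median of 0.23. At an unadjusted p under 0.05, 5 of them were higher (62.5%) and 0 lower, against the same 8.56% and 7.84% of all tested probe sets. Of all named genes the shares were again 10.9% and 10.1%. The ubiquitin ligase gene HRD1 (0.39, adjusted p = 0.0812) and UBC7, the ubiquitin-conjugating enzyme gene that works with it (0.29, adjusted p = 0.0744), had the lowest p of the 8. These proteins act on Hmg2 as part of the general degradation of proteins of the endoplasmic reticulum. Of 12 genes that use isoprenoids for other products none passed (3 higher, 25%, and 1 lower, 8.33%, at an unadjusted p under 0.05, list median 0.03), with BET4, a subunit of the enzyme that prenylates Rab proteins (0.28, adjusted p = 0.158), and RER2, which makes dolichol (0.19, adjusted p = 0.188), at the lowest p.

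Low-oxygen genes serve as markers of a growth state in which sterol synthesis and uptake differ. Of 13 measured, 1 passed as higher and 1 as lower, against 1.83% and 0.758% of all tested probe sets, and the list median was -0.31. At an unadjusted p under 0.05, 2 were higher (15.4%) and 4 lower (30.8%), against 8.56% and 7.84% of all tested probe sets. Of all named genes the shares were 10.9% and 10.1%. ANB1, the low-oxygen form of the translation factor eIF5A, was read at 857, 781 and 918 in the DMSO cultures and 503, 483 and 456 in the OGT2468 cultures, and it fell by 0.80 on the log2 scale (SE 0.08, adjusted p = 0.00846). DAN4, a cell wall mannoprotein gene of anaerobic cells, was read at 131, 132 and 114 in the DMSO cultures and 246, 286 and 261 in the OGT2468 cultures, and it rose by 0.98 ± 0.09 (SE, adjusted p = 0.0053). For both, the groups were well apart and the call held in all 6 fits without 1 array. With no scaling between arrays DAN4 did not pass (0.74, adjusted p = 0.0921), and with the replicate block neither did (adjusted p = 0.0835 for ANB1 and 0.0548 for DAN4). ANB1 has a near-identical copy elsewhere in the genome, and the DAN, TIR and PAU genes are related families, so their probe sets may share signal. The mean log2 level of the 13 genes was 8.25 to 8.27 in DMSO and 8.10 to 8.18 in OGT2468, and DAN1 was at background on 3 DMSO arrays and 2 OGT2468 arrays. The part that these genes' growth state plays in the values of HES1, AUS1 and PDR11 was not tested.

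**Figure D5:**
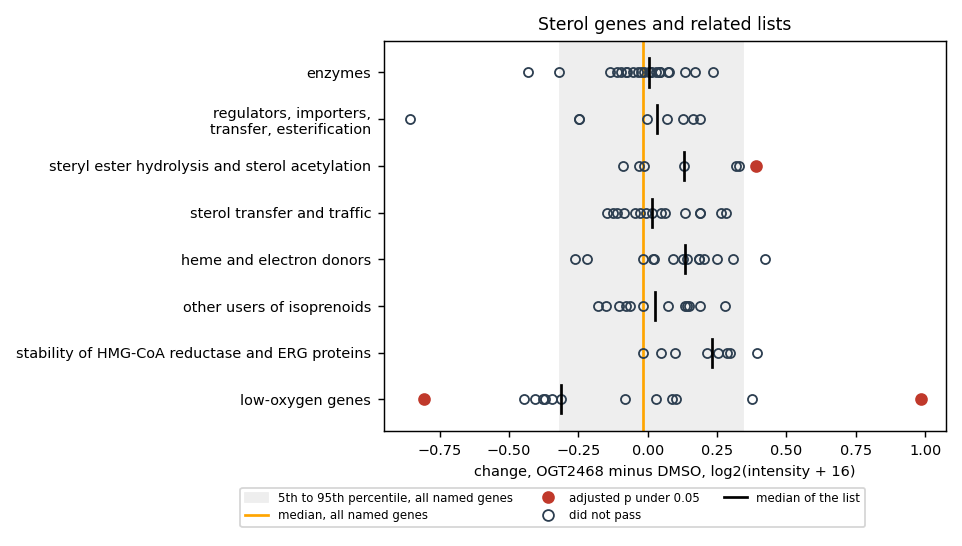
Change of each gene (horizontal axis, OGT2468 minus DMSO, log2(intensity + 16)) in the sterol genes and 6 related lists, with the list median as a black tick, filled points for an adjusted p under 0.05, and the 5th to 95th percentile of all 5449 named genes in grey. The enzymes sit around the median of all named genes with ERG28 and ERG24 to the left, and the filled points are PRY2, ANB1 and DAN4.

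The test was limma on 3 arrays per group, so changes smaller than the intervals given cannot be told from 0. Changes are relative to the other genes on the array, since quantile normalization removes a shift shared by all.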

How the data were processed

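Total RNA of 3 DMSO and 3 OGT2468 cultures was labelled with biotin and hybridised to 1 array each, per the labels' protocols; groups and numbers follow the sample titles. In the deposited table each probe set has 1 linear intensity on each array. The submitters' processing notes name GCRMA, a method of background correction, normalization and summarisation, but the values are not on its log2 scale and differ in distribution between arrays. Its role in the deposited values and its version are not given in the sources used here.

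Gene names came from the platform annotation matched by gene identifier to a table of the R64 assembly. The array holds 10928 probe sets: 5498 with a single S. cerevisiae gene, 3470 unnamed here, 1747 of another species and 213 controls. The first 2 kinds, 8968 in all, were tested. Intensities were quantile normalized, 16 was added and log2 taken, and limma 3.58.1 (lmFit, eBayes; R 4.3.3) compared the groups with no covariate, with Benjamini-Hochberg adjustment over all tested probe sets. The script was tested on simulated data. Background was the 98th percentile of other-species probe sets per array.

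The sterol genes and all lists were chosen with earlier results of these data known. Every sterol gene is named; values on every array are given for genes with an unadjusted p under 0.05 and for a fixed set of 15, and of each other list the genes that passed, or the 2 with the lowest p. Alternatives were 4 other scalings (none, 9 hybridization control probe sets, upper quartile, median), pseudocounts of 1 and 64, 2 filters, the replicate block and each array left out. The precision is limited by 3 arrays per group. The p-values set each difference against the spread between these arrays, which limma moderates with that of all tested probe sets. Sequences of promoters and proteins were not used here.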

Additional observations from a re-analysis of the deposited data

How the results depend on the processing

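Changes were recomputed under 9 alternatives and without each array in turn. The number of sterol genes that passed was 0 higher and 0 lower as reported, also with a pseudocount of 1, upper-quartile and median scaling, the replicate block and without any 1 array. It was 1 higher and 2 lower with a pseudocount of 64, with named probe sets alone and with dim probe sets left out (ERG27, and ERG24 and ERG28), 0 and 1 with no scaling (HES1), and 0 and 1 with scaling on the hybridization controls (ERG28). Leaving out probe sets changes how many are tested and also the SE. With dim probe sets left out the SE went from 0.065 to 0.059 for ERG24 and from 0.078 to 0.072 for ERG28, at unchanged changes of -0.32 and -0.43. With a pseudocount of 64 the SE was 0.056 for ERG24 and 0.067 for ERG28, at changes of -0.32 and -0.42. With named probe sets alone it was 0.059 and 0.071, at changes of -0.32 and -0.43. What made the calls differ between settings was not tested. The median change of the 32 genes was 0.01 as reported, -0.23 with no scaling and -0.22 with control scaling, beside medians over all named genes of -0.02, -0.27 and -0.26. Over all tested probe sets 164 were higher and 68 lower as reported, 22 and 44 with no scaling, 40 and 77 with control scaling, 125 and 51 with upper-quartile scaling, 105 and 48 with median scaling, 110 and 49 with a pseudocount of 1, 292 and 187 with 64, 326 and 203 with named probe sets alone, 290 and 175 with dim probe sets left out, and 61 to 91 higher and 28 to 40 lower without 1 array. With the replicate block they were 27 and 14. The title numbers are not shown to pair the arrays. The deviations of same-numbered arrays from their group means correlated at 0.06, 0.04 and 0.01. Those of differently numbered arrays correlated at -0.06 to 0.01.

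Changes of genes that did not pass took the other sign as follows. With no scaling they were -0.092 for ERG10, -0.14 for ERG13, -0.28 for HMG2, -0.12 for ERG12, -0.11 for ERG20, -0.24 for ERG9, -0.18 for ERG1, -0.22 for ERG7, -0.16 for ERG11, -0.22 for NCP1, -0.026 for ERG27, -0.20 for ERG6, -0.14 for ERG2, -0.090 for AUS1, -0.079 for PDR11, -0.20 for ARE1 and -0.13 for ARE2. With control scaling they were -0.082 for ERG10, -0.13 for ERG13, -0.27 for HMG2, -0.11 for ERG12, -0.10 for ERG20, -0.23 for ERG9, -0.17 for ERG1, -0.21 for ERG7, -0.15 for ERG11, -0.21 for NCP1, -0.015 for ERG27, -0.19 for ERG6, -0.13 for ERG2, -0.080 for AUS1, -0.068 for PDR11, -0.19 for ARE1 and -0.12 for ARE2. With upper-quartile scaling they were -0.0052 for HMG2, 0.077 for ERG25 and 0.010 for ERG4, with median scaling -0.018 for HMG2 and 0.064 for ERG25, and with a pseudocount of 64 0.0050 for UPC2. Without 1 array the changes that crossed 0 ranged over -0.0088 to 0.079 for ERG1, -0.0094 to 0.042 for ERG11, -0.030 to 0.0013 for ERG25, -0.040 to 0.00072 for ERG4, -0.024 to 0.027 for ERG6, -0.018 to 0.035 for ERG9, -0.070 to 0.091 for HMG2, -2.6e-05 to 0.066 for NCP1 and -0.19 to 0.23 for UPC2. A mean over several probe sets was not run, since each of the 32 genes has 1.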
